A study of Bos taurus with 6 samples.

Results

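From the 1028 miRNAs listed for primary cultures of bovine granulosa cells (the somatic cells lining the ovarian follicle), 9 that are known chiefly from other lineages were chosen. They are bta-miR-1, bta-miR-133a, bta-miR-133b and bta-miR-206 of muscle, bta-miR-122 of liver, bta-miR-124a, bta-miR-9-5p and bta-miR-129-3p of neural tissue, and bta-miR-375 of endocrine cells. They were picked by name, for what is known of them elsewhere, with earlier results of these data known. The rule used no measured value. The cells came from small antral follicles of 3 to 6 mm and were cultured for 24 h, after which 24 h more followed at 37 °C (control, 3 libraries) or under heat stress (HS) at 42 °C (3 libraries). Ovaries came from a slaughterhouse, red blood cells were lysed at collection and the medium of both groups held 10% exosome-depleted serum, so each library represents a short primary culture and not a sorted cell type. Nothing in the labels says whether replicates came from separate animals, and p-values therefore measure only the spread between these libraries.

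A miRNA is a short RNA that guides a silencing complex to messenger RNAs, mostly through pairing of its seed, the bases near its 5′ end. Some miRNAs are made in nearly every cell, while others reach high levels in a single lineage: miR-1, miR-133 and miR-206 (the myomiRs) in cardiac and skeletal muscle, miR-122 in hepatocytes, miR-124 and miR-9 in neurons and their progenitors, and miR-375 in pancreatic islet and other neuroendocrine cells. Outside their lineage such miRNAs can be low or silent, and a low level can only be read against the number of reads that a library holds.

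The libraries held 2076239 to 4590971 reads over the listed miRNAs, as recovered from the deposited values. The study gives somewhat higher totals of reads mapped to miRNAs for the same libraries, and the cause of the gap was not tested. Levels and floors rest on the scaled library sizes behind the deposited values. Values are given as normalised CPM, which are reads per 1000000 reads of the library after its total was scaled. A count of 0 allows up to about 3 reads as a one-sided 95% limit, and this floor lay between 0.639 and 1.46 normalised CPM. Intervals are exact two-sided 95% Poisson intervals, which reach 3.69 reads for a count of 0. Like the floor, they cover counting error only. A miRNA was called held when each of the 6 libraries had more than 3 reads of it. Of miRNAs reported for granulosa cells, 7 of 7 were held (bta-miR-21-5p, bta-miR-132, bta-miR-212, bta-miR-202, bta-miR-224, bta-miR-383 and bta-miR-503-5p), although none of them is particular to these cells. The leukocyte, endothelial and stroma, theca or smooth muscle markers were all held too, so this does not check the label.

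To determine which miRNAs of other lineages were present, each of the 9 was set against the floor. bta-miR-124a was listed at 0 in every library, and bta-miR-133b exceeded 3 reads in only 1 library. The remaining 7 (77.8%) were held: bta-miR-1, bta-miR-133a, bta-miR-206, bta-miR-122, bta-miR-9-5p, bta-miR-129-3p and bta-miR-375. Over all listed miRNAs, 364 of 1028 (35.4%) were held, 273 (26.6%) were listed at 0 in every library, 219 (21.3%) had no library above 3 reads, and 172 (16.7%) lay between. With the reads scaled down to the depth of the smallest library 6 of the 9 were held, as bta-miR-206 no longer exceeded the floor in every library.

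All 9 together took 0.0193% to 0.0368% of the reads of a library. By mean level over the 6 libraries, bta-miR-1 came first with 69.2 normalised CPM (rank 181 of 1028), followed by bta-miR-133a with 67.2, bta-miR-9-5p with 65.1 and bta-miR-122 with 47.5. The ranges of these 4 over the libraries overlapped, so their order was not resolved. bta-miR-129-3p followed with 9.52, bta-miR-375 with 5.0 and bta-miR-206 with 2.90 (rank 358). Each library of bta-miR-129-3p was above each library of bta-miR-375, while bta-miR-375 and bta-miR-206 overlapped. For scale, there were 2892 reads of bta-miR-21-5p for each read of bta-miR-1 and 67332 for each read of bta-miR-206. Levels of different miRNAs were compared as reads. How evenly the library steps captured different miRNAs was not tested, and the counting intervals do not cover it. Ranks, ratios and shares between miRNAs therefore describe reads and not amounts in the cell.

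**Figure D1:**
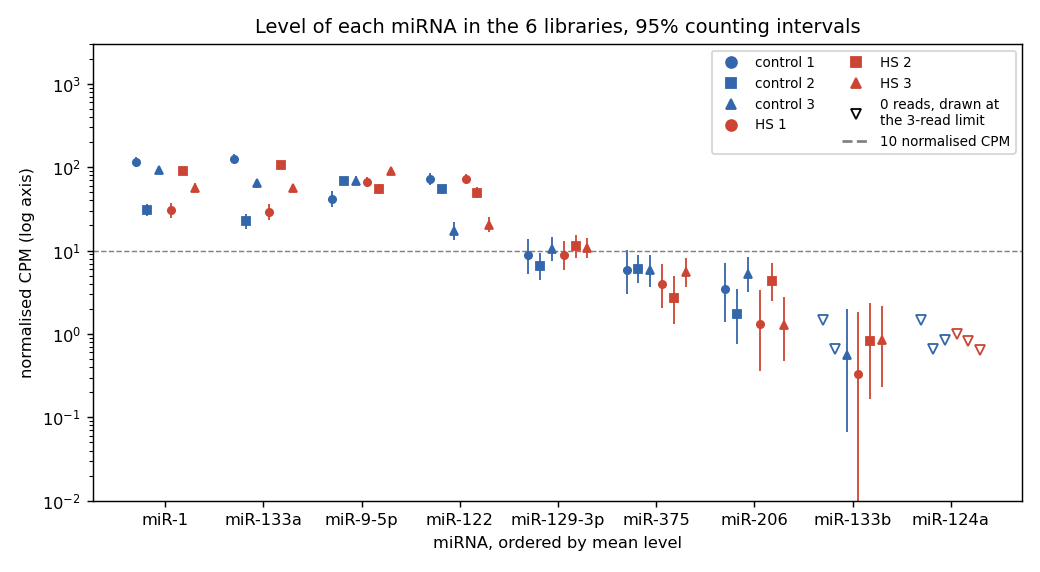
Level of each of the 9 miRNAs in normalised CPM (log axis) in the 3 control (blue) and 3 HS (red) libraries, with 95% exact Poisson intervals as bars; open triangles mark libraries with 0 reads, drawn at the 3-read limit, and the dashed line is 10 normalised CPM. miR-1, miR-133a, miR-9-5p and miR-122 lie above 10 in all 6 libraries, miR-129-3p lies around it, miR-375 and miR-206 lie below it, and miR-124a has 0 reads throughout.

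The study regarded a miRNA as detected when at least 2 of the 3 libraries of a group reached 10 normalised CPM. By this rule 4 of the 9 were detected in control cells (bta-miR-1, bta-miR-133a, bta-miR-122 and bta-miR-9-5p), and the same 4 together with bta-miR-129-3p were detected in HS cells. bta-miR-129-3p had 8.79, 6.52 and 10.6 normalised CPM in replicates 1, 2 and 3 of the control group, and 8.96, 11.4 and 10.9 in HS replicates 1, 2 and 3. The counting intervals of 5 of these 6 libraries include 10, and only that of control replicate 2 (4.4 to 9.30) does not. Its detection in HS cells alone was therefore a crossing of the minimum within counting error.

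To examine the response to HS, 365 miRNAs with enough reads were tested with limma on log2(normalised CPM + 1), and p-values were adjusted over all of them by the Benjamini-Hochberg method. Of the 9 miRNAs, 7 passed the filter on low reads, and none passed the first threshold (adjusted p ≤ 0.2 and a change of 1 or more in size on the log2 scale), which 11 of the 365 (3.01%) passed. None passed the second (adjusted p under 0.05) either, which 8 of 365 (2.19%) passed. In limma 0 of the 7 had an unadjusted p under 0.05, and the same was found with the edgeR quasi-likelihood test and the DESeq2 Wald test on the recovered reads. Of the 7, 3 had a positive and 4 a negative log2 fold change (HS relative to control), with a median of -0.0227 against -0.00154 over all miRNAs tested. Control and HS libraries were fully separate for 1 of the 7, bta-miR-375, and for 73 of the 365 miRNAs (20%).

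**Figure D2:**
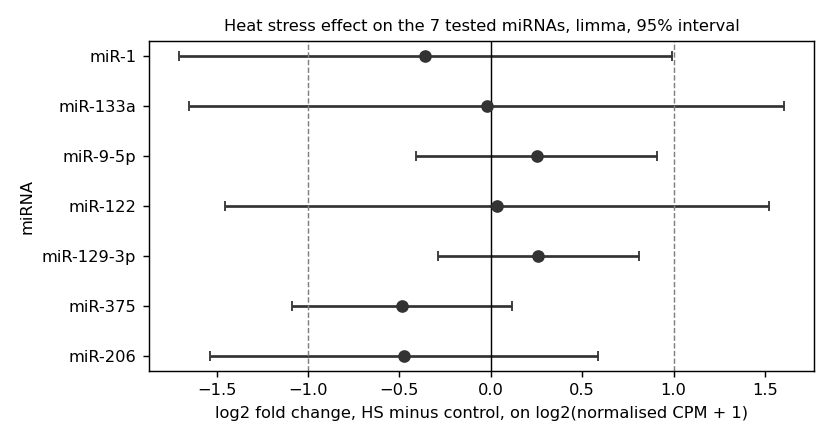
Log2 fold change of HS relative to control cells for the 7 tested miRNAs (points) with 95% intervals from limma (bars), on the log2(normalised CPM + 1) scale with 3 libraries per group; dashed lines mark a change of 1 in size. Every interval includes 0, and those of miR-133a and miR-122 are the widest, from -1.65 to 1.61 and from -1.46 to 1.52.

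The muscle miRNAs differed in reads by orders of magnitude, and bta-miR-1 and bta-miR-133a varied between replicates far beyond counting error. miR-1 promotes differentiation of muscle precursors and miR-133 is its partner from the same transcripts. All 9 miRNAs matched a gene in RefSeq (ARS-UCD2.0), 14 hairpin genes in all. MIR1-1 neighbours MIR133A-1, MIR1-2 neighbours MIR133A-2 with both overlapping the protein-coding gene MIB1, and MIR206 neighbours MIR133B. Positions are not given, because the reads were mapped to another assembly.

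bta-miR-1 had 115 (101 to 131), 31.1 (26.2 to 36.6) and 91.9 (82.3 to 102) normalised CPM in replicates 1, 2 and 3 of the control group, on 236, 143 and 330 reads. In HS replicates 1, 2 and 3 it had 30.5 (24.6 to 37.4), 89.7 (80.3 to 99.96) and 56.6 (50.0 to 63.8), on 92, 330 and 266 reads. Within each group the highest library was 3.71 (control) and 2.94 (HS) times the lowest, and the groups overlapped. The log2 fold change was -0.36 ± 0.569 (SE, limma adjusted p = 0.858), with a 95% interval of -1.70 to 0.99. Without control replicate 1 or HS replicate 1 it turned to 0.0062 and 0.042 (limma adjusted p = 0.995 and 0.984), and without control replicate 2 or HS replicate 2 it was -0.92 and -0.72.

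bta-miR-133a had 126 (112 to 143), 22.4 (18.3 to 27.1) and 63.8 (55.8 to 72.6) normalised CPM in replicates 1, 2 and 3 of the control group, and 29.2 (23.4 to 36.0), 105 (95.02 to 116) and 56.4 (49.8 to 63.6) in HS cells. Within each group control replicate 1 and HS replicate 2 were the highest, and control replicate 2 and HS replicate 1 the lowest, as for bta-miR-1. The log2 fold change was -0.023 ± 0.687 (SE, limma adjusted p = 0.983), and it turned to 0.55 without control replicate 1, 0.060 without control replicate 3 and 0.43 without HS replicate 1.

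Counting error alone gives a chi-square per degree of freedom of about 1 between replicates of a group. For bta-miR-1 this value was 93.1 in control and 49.0 in HS cells, and for bta-miR-133a it was 135 and 78.2. Among miRNAs with mean reads within 2-fold of theirs, the median ranged from 4.54 to 8.74. Of such miRNAs, 7 of 58 in control and 4 of 63 in HS cells had a higher value than bta-miR-1, and 3 of 59 and 2 of 63 had a higher value than bta-miR-133a. The SD of log2 values within groups placed bta-miR-133a 11th and bta-miR-1 17th of 365.

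The ratio of bta-miR-1 to bta-miR-133a reads varied less than either miRNA. It was 0.911, 1.39 and 1.44 over the control libraries (replicates 1, 2 and 3) and 1.05, 0.853 and 1.004 over the HS libraries. Of all 365 tested miRNAs, each was the closest to the other, with a Pearson correlation of log2 values of 0.95 over the 6 libraries, which share their depth and scaling between both miRNAs. The next closest were bta-miR-425-5p (0.94) and bta-miR-181b (0.91) for bta-miR-1, and bta-miR-130b (0.93) and bta-miR-11985 (0.88) for bta-miR-133a. bta-miR-425-5p, at 1455 to 1771 normalised CPM, varied little over the same libraries, so its likeness is one of pattern and not of the size of the swings.

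bta-miR-206, the myomiR of skeletal muscle that shares its seed with miR-1, was low but above the floor in each library. It had 3.42, 1.74 and 5.29 normalised CPM in replicates 1, 2 and 3 of the control group on 7, 8 and 19 reads, and 1.33, 4.35 and 1.28 in HS cells on 4, 16 and 6 reads. Control replicate 3 and HS replicate 2 were high, and the groups overlapped. It took 4.12% (exact 95% interval 3.16 to 5.27) of the reads of bta-miR-206 and bta-miR-1 together. Its chi-square per degree of freedom was 3.84 in control and 5.09 in HS cells, against medians of 1.21 and 1.16 at like level. The log2 fold change was -0.47 ± 0.448 (SE, limma adjusted p = 0.745). It ranged from -0.88 (without HS replicate 2) to -0.19 (without control replicate 3) when 1 library was left out, and was -0.79 without control replicate 2, -0.28 without HS replicate 1 and -0.26 without HS replicate 3. The closest miRNAs over the 6 libraries were bta-miR-181b (Pearson r = 0.91), bta-miR-769 (0.86) and bta-miR-339a (0.84).

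bta-miR-133b, near-identical in sequence to bta-miR-133a and encoded beside bta-miR-206, was at the limit of detection. It had 0, 0 and 2 reads in control and 1, 3 and 4 reads in HS libraries, or 0.462 normalised CPM (0.222 to 0.850) over all 6 libraries. The total of 10 reads against 1331 of bta-miR-133a is 0.746% of both (exact 95% interval 0.358 to 1.37). How reads that match both miRNAs were divided is not stated, so the split is uncertain. It failed the filter on low reads. No fold change is given, since 5 of 6 libraries were at or under the floor.

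Related muscle miRNAs were taken from a list of 26 miRNAs of the same lineages, of which 23 had a row. bta-miR-499, encoded in a myosin heavy chain gene, was held at 5.97 to 11.3 normalised CPM (log2 fold change -0.035, limma adjusted p = 0.969). bta-miR-208b had 1 to 4 reads per library, and bta-miR-208a, bta-miR-133c and bta-miR-490 were listed at 0 in every library. The gene of bta-miR-133c overlaps MIR133A-1. Of the muscle miRNAs, bta-miR-1 and bta-miR-133a were thus well above the others.

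Markers of stroma, theca or smooth muscle (bta-miR-143, bta-miR-145, bta-miR-199a-3p, bta-miR-199a-5p and bta-miR-214) were all held, with a summed level of 1324 to 2083 normalised CPM in control and 2008 to 2192 in HS libraries. In replicates 1, 2 and 3 the sum was 1324, 2083 and 1832 for the control group and 2008, 2192 and 2183 for the HS group. Within the control group it was lowest where bta-miR-1 and bta-miR-133a were highest, and within the HS group it was highest where they were highest. Most of the sum was bta-miR-199a-3p (934 to 1680). Single markers went different ways. Control replicate 1 was the lowest control library for bta-miR-143, bta-miR-199a-3p and bta-miR-199a-5p and the highest for bta-miR-145 and bta-miR-214. The highest HS library was replicate 1 for bta-miR-143 and bta-miR-145, replicate 2 for bta-miR-214, and replicate 3 for bta-miR-199a-3p and bta-miR-199a-5p. The part of other cells in the level of the muscle miRNAs was not tested. In such bulk libraries fewer cells of a type and less RNA per cell cannot be told apart.

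**Figure D3:**
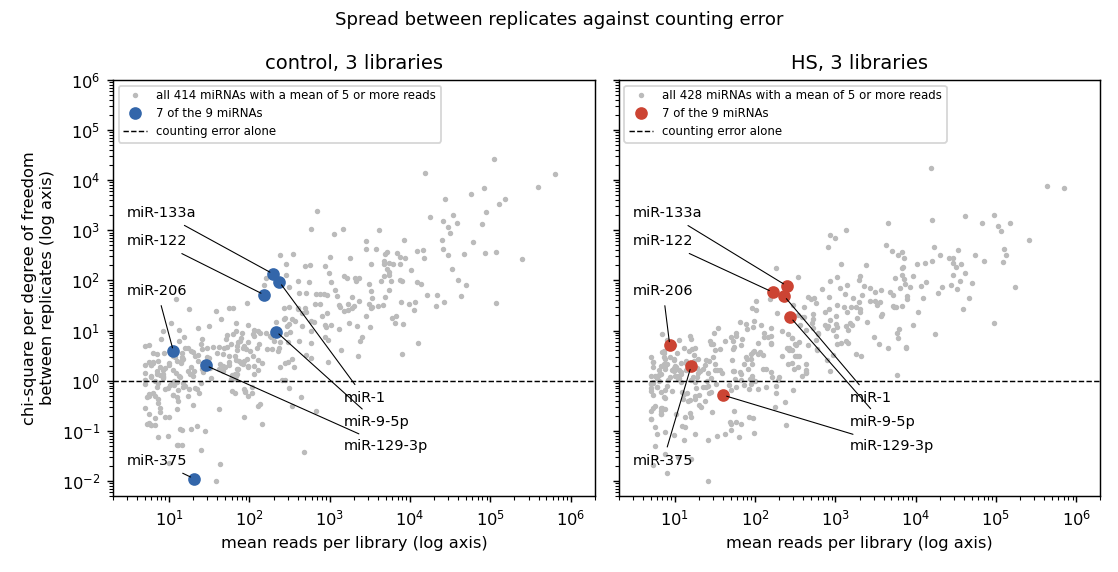
Chi-square per degree of freedom of the reads between the 3 replicates of a group (log axis) against mean reads per library (log axis) for all miRNAs with a mean of 5 or more reads (grey) and the 7 of the 9 miRNAs that reach it (coloured), in control (left) and HS (right); the dashed line at 1 is counting error alone and values under 0.01 are drawn at 0.01. miR-133a, miR-1 and miR-122 lie at 49.0 to 135, near the upper edge of miRNAs at their level, whereas miR-129-3p and miR-375 lie at 2.01 or below.

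bta-miR-122, the most abundant miRNA of hepatocytes, was held at a moderate level, and no difference between control and HS cells was detected. It had 71.8 (60.6 to 84.4), 54.3 (47.8 to 61.5) and 17.3 (13.2 to 22.1) normalised CPM in replicates 1, 2 and 3 of the control group, on 147, 250 and 62 reads. In HS replicates 1, 2 and 3 it had 72 (62.7 to 82.2), 49.5 (42.6 to 57.2) and 20.4 (16.6 to 24.95), on 217, 182 and 96 reads. Both libraries numbered 1 were high and both numbered 3 were low, and the counting intervals of same-numbered libraries overlapped in 3 of 3 cases. The group means were 47.8 ± 27.8 and 47.3 ± 25.9 normalised CPM (control and HS, SD, n = 3 each). The log2 fold change was 0.034 ± 0.629 (SE, limma adjusted p = 0.981). It turned to -0.15 with upper quartile factors, -0.025 with edgeR and -0.0037 with DESeq2, and to -0.56, -0.35 and -0.083 without control replicate 3, HS replicate 1 and HS replicate 2.

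The spread of bta-miR-122 was also far above counting error, with a chi-square per degree of freedom of 51.6 in control and 58.4 in HS cells, against medians of 4.47 and 3.69 at like level. Control replicate 1 was the highest control library for both bta-miR-122 and bta-miR-1, whereas the highest HS library was replicate 1 for bta-miR-122 and replicate 2 for bta-miR-1. The Pearson correlation between the 2 miRNAs over the 6 libraries was -0.25. The closest miRNAs were bta-miR-221 (0.96), bta-miR-486 (0.93) and bta-miR-155 (0.93). bta-miR-486, a miRNA abundant in red blood cells and also made in muscle, had 50.8, 29.1 and 12.0 normalised CPM in replicates 1, 2 and 3 of the control group, and 60.1, 49.2 and 20.01 in HS cells. Both thus differed several-fold between libraries, in the same order within each group. bta-miR-155 and bta-miR-221, which are abundant in these cells, had far smaller swings, with 101311 to 138129 and 19994 to 28263 normalised CPM.

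Of the 3 red cell markers, 1 was held. bta-miR-451, the miRNA that defines the erythroid lineage, had 2 to 8 reads per library and bta-miR-144 had 0 or 1. The summed level of the 3 was 12.5 to 52.7 normalised CPM in control and 20.9 to 62.7 in HS libraries, almost all of it bta-miR-486. The 4 leukocyte markers were all held, with a sum of 700.2 to 843 in control and 614 to 749 in HS libraries. The part of blood cells in the level of bta-miR-122 was not tested.

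Other miRNAs of liver, kidney and gut were more even. bta-miR-192 had 394 to 527 normalised CPM in control and 442 to 535 in HS cells, and bta-miR-194, which is transcribed with it, had 196 to 203 and 219.7 to 269. bta-miR-215, which shares the seed of miR-192, had 11.1 to 11.3 in control and 11.1 to 27.9 in HS cells. The HS libraries of bta-miR-194 were all above the control ones, with a log2 change of 0.28 ± 0.142 (SE, limma adjusted p = 0.418). All 3 were held and none was called.

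**Figure D4:**
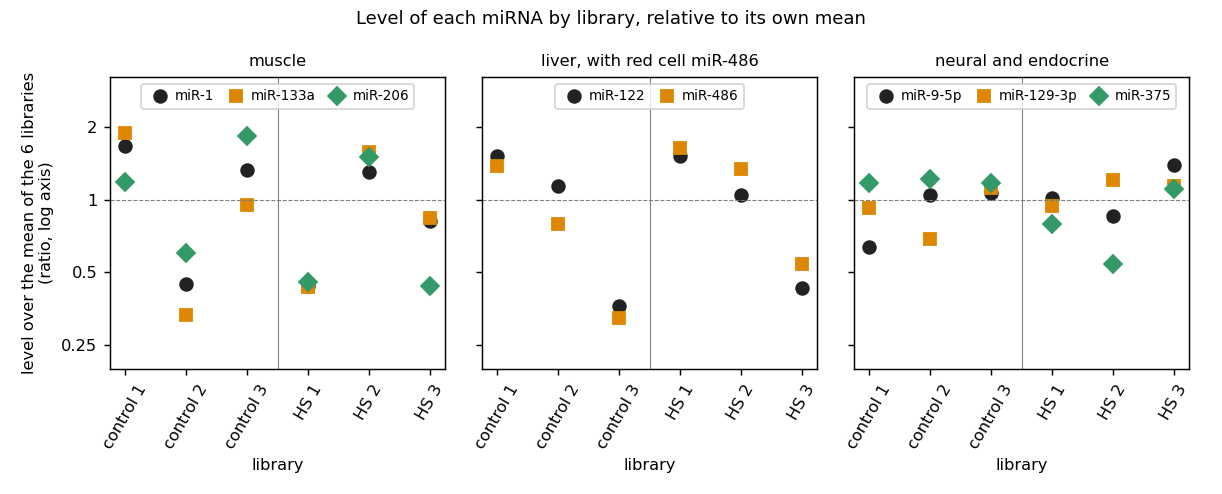
Level of each miRNA in each library as a ratio to its own mean over the 6 libraries (log axis), for held muscle miRNAs (left), miR-122 with miR-486 (middle) and held neural and endocrine miRNAs (right); the vertical line separates the 3 control from the 3 HS libraries. Within each group miR-1 and miR-133a are highest in control 1 and HS 2, miR-122 and miR-486 are low in control 3 and HS 3, and miR-129-3p stays within 6.52 to 11.4 normalised CPM.

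Of the 3 neural miRNAs among the 9, bta-miR-124a was not detectable and the others were held. miR-124 is the most abundant miRNA of neurons and restrains non-neural transcripts there. bta-miR-124a had 0 reads in each of the 6 libraries, and 3 reads in all would be 0.139 normalised CPM. It has 2 hairpin genes, MIR124A-1 and MIR124A-2.

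bta-miR-9-5p, from the miRNA that acts in neural progenitors, had 41.5 (33.1 to 51.3), 68.2 (60.9 to 76.2) and 69.1 (60.8 to 78.3) normalised CPM in replicates 1, 2 and 3 of the control group, on 85, 314 and 248 reads. In HS replicates 1, 2 and 3 it had 66.4 (57.5 to 76.2), 55.5 (48.1 to 63.6) and 90.2 (81.9 to 99.3), on 200, 204 and 424 reads. Control replicate 1 was the lowest and HS replicate 3 the highest library, and the groups overlapped. The log2 fold change was 0.25 ± 0.277 (SE, limma adjusted p = 0.819), with a 95% interval of -0.41 to 0.91, and it was 0.013 without control replicate 1, 0.062 without HS replicate 3 and 0.41 without HS replicate 2. The chi-square per degree of freedom was 9.54 in control and 18.3 in HS cells, where the medians at like level were 7.76 and 5.46. The closest miRNAs over the libraries were bta-miR-455-5p (0.97), bta-miR-19a (0.96) and bta-miR-192 (0.95).

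The reads of the miR-9 hairpin lay almost wholly on the 5p arm. bta-miR-9-3p had 1 read in each replicate 1 and 0 in the others, 2 in all against 1475 of bta-miR-9-5p. The 5p arm thus took 98.8% of the reads of both arms in control replicate 1 (exact Clopper-Pearson 95% interval 93.7 to 99.97), 99.5% in HS replicate 1 (97.3 to 99.99) and 100% in the other 4 libraries (lower bounds of 98.2% to 99.1%). Its mean share was 99.6% ± 0.671 under control and 99.8% ± 0.287 under HS conditions (SD, n = 3 each). A two-sided exact permutation test gave p = 1, and 3 libraries against 3 cannot go below 0.1. With 2 reads of the 3p arm in all, the test could not decide whether arm use changed.

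bta-miR-129-3p, of a miRNA enriched in brain, was close to counting error between replicates. Its reads were 18, 30 and 38 in control and 27, 42 and 51 in HS libraries, with a chi-square per degree of freedom of 2.01 and 0.515. The group means were 8.63 ± 2.04 and 10.4 ± 1.29 normalised CPM (SD, n = 3 each), and the log2 fold change was 0.26 ± 0.232 (SE, limma adjusted p = 0.738). It was 0.093 without control replicate 2 and 0.41 without control replicate 3. There were 19611 reads of bta-miR-21-5p for each of its reads.

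The miRNA most like bta-miR-129-3p over the 6 libraries was bta-miR-129 (Pearson r = 0.92), whose name gives no arm, followed by bta-miR-10174-5p (0.90) and bta-miR-2339 (0.88). bta-miR-129 had 31.2, 24.8 and 31.2 normalised CPM in replicates 1, 2 and 3 of the control group, and 31.2, 39.4 and 37.7 in HS cells. The reads of bta-miR-129-3p were 0.263 to 0.339 of those of bta-miR-129 in every library. bta-miR-129 had a log2 change of 0.30 ± 0.190 (SE, limma adjusted p = 0.541). Both had slightly higher means in HS cells, and neither was called.

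The other neural miRNAs of the list spanned a wide range. bta-miR-128, known from brain but made in many tissues, was the highest with 2335 to 2438 normalised CPM in control and 1925 to 2250 in HS cells. Its HS libraries were all below the control ones, with a log2 change of -0.18 ± 0.109 (SE, limma adjusted p = 0.521). bta-miR-138 (21.9 to 32.1), bta-miR-218 (12.2 to 29.3) and bta-miR-219 (3.90 to 9.28) were held and overlapped between groups. bta-miR-137, bta-miR-153 and bta-miR-488 exceeded 3 reads in some libraries only, and bta-miR-219-3p and bta-miR-219-5p were listed at 0.

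bta-miR-375, the islet and neuroendocrine miRNA that restrains hormone secretion, was low and the most even of the 7 held miRNAs in control cells. It had 5.86, 6.08 and 5.85 normalised CPM in replicates 1, 2 and 3 of the control group, on 12, 28 and 21 reads. In HS replicates 1, 2 and 3 it had 3.98, 2.72 and 5.53, on 12, 10 and 26 reads. All 3 HS libraries were below all 3 control libraries, although HS replicate 3 lay only just below the lowest control library (5.85). The control libraries differed by less than counting error (chi-square per degree of freedom 0.0112), and the HS libraries gave 1.97.

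The log2 fold change of bta-miR-375 was -0.49 ± 0.254 (SE, limma adjusted p = 0.441), with a 95% interval of -1.09 to 0.12, and it was -0.28 without HS replicate 2. Its unadjusted p in limma was 0.0979, and the counting intervals of every HS library overlapped those of every control library. The closest miRNAs over the libraries were bta-miR-22-5p (0.98), bta-miR-126-5p (0.96) and bta-miR-2285h (0.95). bta-miR-126-5p, a marker of endothelium, had 40.0, 32.6 and 41.8 normalised CPM in replicates 1, 2 and 3 of the control group and 24.9, 13.3 and 39.2 in HS cells. The sum of both endothelial markers was 228 to 352 in control and 131 to 265 in HS libraries, and its part in the level of bta-miR-375 was not tested.

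Other endocrine and pancreatic miRNAs were either abundant or near the floor. bta-miR-7, made in neuroendocrine cells and elsewhere, had 442 to 582 normalised CPM in control and 466 to 585 in HS cells, a log2 change of -0.011 (limma adjusted p = 0.981). bta-miR-216a and bta-miR-217 of the exocrine pancreas did not exceed 3 reads in any library, and bta-miR-216b did so in 1. Over the whole list of related miRNAs, 10 of 23 were held, 5 were listed at 0, 3 had no library above 3 reads and 5 lay between. All 10 held ones were tested, 0 were called at either threshold, and their median log2 fold change was -0.00433.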

How the data were processed

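Per the labels, 100 ng of total RNA entered each small RNA library (QIAseq kit with molecular identifiers, UMIs; 16 PCR cycles). The authors trimmed adapters (Cutadapt 1.11), collapsed reads by UMI, mapped to UMD3.1 with Bowtie2 2.2.2, counted miRBase entries and scaled the counts with TMM factors (trimmed mean of M-values). The deposited signal is thus TMM-normalised CPM. In each library 100% of the values were whole multiples of 1 step (tolerance 0.01 of a read), which gave back whole reads and depth.

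Values were tested with limma 3.58.1 (eBayes with trend, R 4.3.3) on log2(value + 1) after the filterByExpr filter of edgeR 4.0.16, and adjusted over all miRNAs tested. The fit was also run on simulated reads that gave all miRNAs a common spread. Its outcome is not given here and does not measure the power for miRNAs of large spread. Log2 fold changes on this scale understate the change of low miRNAs. Intervals and exact tests used scipy 1.17.1. Alternatives were other scalings, pseudocounts, no filter, edgeR, DESeq2 1.42.0, the replicate block and leaving out each library.

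The 9 miRNAs, the related list and the markers were chosen with earlier results of these data known. Named besides were the miRNAs of the related list that had a row, held or not, and the 3 miRNAs with the highest Pearson correlation to each held one of the 9. bta-miR-124b, bta-miR-129-5p and bta-miR-219b were not analysed here. The genome sequence was not used here, and gene names, neighbours and overlaps came from the RefSeq annotation.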

Additional observations from a re-analysis of the deposited data

How the results depend on the processing

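No miRNA of the 9 was called at either threshold under any of the 15 alternatives (0 with the replicate block, and 0 without each library in turn), and the smallest adjusted p was 0.299 (bta-miR-375, upper quartile factors). bta-miR-375 had an unadjusted p under 0.05 with those factors and without HS replicate 3. Of 105 comparisons of a log2 fold change with an alternative, 94 kept their sign and 11 did not. Those of bta-miR-122 turned to -0.15 with upper quartile factors, which moved the median of all tested miRNAs to -0.18, to -0.025 with edgeR and to -0.0037 with DESeq2. When a library was left out, values ran from -0.56 to 0.54 for bta-miR-122, from -0.92 to 0.042 for bta-miR-1 and from -0.68 to 0.55 for bta-miR-133a. They kept their sign for bta-miR-206 (-0.88 to -0.19), bta-miR-375 (-0.69 to -0.28), bta-miR-129-3p (0.093 to 0.41) and bta-miR-9-5p (0.013 to 0.41). The cause was not tested. The number of the 9 that were held was 7, and 5 with a floor of 10 reads. Detection by level was 4 in control and 5 in HS cells. A minimum of 1 normalised CPM gave 7 and 7, and a minimum of 100 gave 0 and 0. The difference in the 5p share of miR-9, 0.222 points, ran from -0.166 (without control replicate 1) to 0.416, and it rests on 2 reads of the 3p arm. Its log2 ratio could not be computed where the 3p arm had 0 reads.

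The labels do not say whether a shared number marks a pair, so the numbers were not treated as pairs. Deviations from the group means correlated across the 365 miRNAs at 0.421, -0.117 and 0.616 for libraries numbered 1, 2 and 3. Control replicates 1 and 3 correlated best with the HS library of the same number. Control replicate 2 correlated best with HS replicate 3 (0.240). These values do not settle whether the libraries were paired. With the replicate block bta-miR-122 had an SE of 0.168 in place of 0.629 and a limma adjusted p of 0.936. For bta-miR-124a, with 0 reads, depth gives an upper limit only.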
